A study of Mus musculus with 39 samples.

Results

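Masseter, a jaw-closing muscle, was compared at day 38 between mice given collagenase in that muscle and mice given saline there. The 7 libraries were chosen by their treatment and time labels, out of 39 libraries in the series. The series models jaw-muscle pain that refers to the head and also measured dura mater and masseters of mice injected in the temporal muscle. The 3 collagenase libraries (5, 6 and 7) came from masseters given 4 injections of 0.2 to 0.5 U of collagenase type I, which digests collagen. A further 3 collagenase libraries (8, 9 and 10) with the same doses, taken at day 52, were used to follow the same genes later. The 4 saline libraries (1, 2, 3 and 4) came from masseters given saline and taken at day 38; no saline group at day 52 was analysed here. All mice were wild type, and age, sex and strain are not stated in the labels. Whether each library is from its own animal is not stated, so the spread behind every p-value may be technical. The main fit took that spread from all 17 masseter libraries of the series, not from the day 38 libraries alone. These also included 3 day 28 masseters of mice given the same doses in the temporal muscle. A further 4 were day 28 masseters given saline, taken as single-end.

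Skeletal muscle repairs damage through satellite cells, which divide, differentiate into myoblasts and fuse with each other or with existing fibres. Newly formed or regenerating fibres carry embryonic and slow isoforms of myosin and troponin and a fetal acetylcholine receptor, and adult fast fibres use other isoforms. Macrophages clear debris, and fibroblasts lay down and remodel the collagen matrix around the fibres. The masseter of the mouse is built mainly of fast fibres.

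The 7 libraries were all paired-end and held 25 to 28 M (mega) counts after collagenase and 21.0 to 28.1 M counts after saline. They were muscle by their markers: the summed level of 12 muscle identity genes was 79160 to 128700 transcripts per M transcripts (TPM) after collagenase and 117300 to 131800 TPM after saline. Salivary gland transcripts were most abundant in collagenase library 7 and saline library 2, and collagenase libraries 5 and 6 also held some of them. The summed level of 18 secretory markers was 205, 1030 and 303300 TPM in collagenase libraries 5, 6 and 7, against 78.6, 89570, 117 and 108 TPM in saline libraries 1, 2, 3 and 4. These markers took 16.3% of the counts in collagenase library 7 and 4.08% in saline library 2, and 2 of the 18 were at 0 in all 7 libraries. In library 6 the prolactin-induced protein Pip was at 741 TPM and the saliva peroxidase Lpo at 37.3 TPM, and Lpo was at 41.0 TPM in saline library 2. The secretory markers of library 6 were mixed. Car6 was at 126 TPM there, against 0.3 to 1.65 TPM in saline libraries 1, 3 and 4. Bpifa2 (10.7 TPM) and Smr3a (8.26 TPM) were within the range of those libraries (8.48 to 17.4 and 6.71 to 16.2 TPM). Collagenase library 5 was mixed too. Its Car6 (15.4 TPM) and Pip (6.68 TPM, against 0.33 to 2.88 TPM) lay above saline libraries 1, 3 and 4. Its Klk1 (49.5 TPM) lay within their range of 10.3 to 52.2 TPM. Library 7 also had the lowest sum of muscle identity genes. TPM are shares of a library, so abundant gland transcripts lower all other TPM values of that library, here and below. The part of this in the low muscle sum was not tested.

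Marrow and bone transcripts set collagenase library 6 apart. The 16 granulocyte markers summed to 36.0, 516 and 60.7 TPM after collagenase, against 25.2, 12.7, 34.3 and 18.3 TPM after saline. All 3 collagenase sums thus lay above the saline sums, with library 5 close to saline library 3. Elane, an elastase made in immature granulocytes of the marrow, was at 0, 5.53 and 0.19 TPM after collagenase and at 0 to 0.1 TPM after saline. The 13 bone markers summed to 32.0, 485 and 144 TPM after collagenase and to 31.8 to 56.0 TPM after saline. The erythroid sum was high both in collagenase library 6 (2160 TPM) and in saline library 3 (1575 TPM), and the cartilage sum of 19.1 to 66.5 TPM after collagenase overlapped the 14.9 to 43.3 TPM after saline. Ucp1, the uncoupling protein of brown fat, was at 53.5 TPM in library 6 and at 0 in the other 6 libraries. The part of these transcripts in the results that follow was not tested, except where values without those libraries are given.

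**Figure D1:**
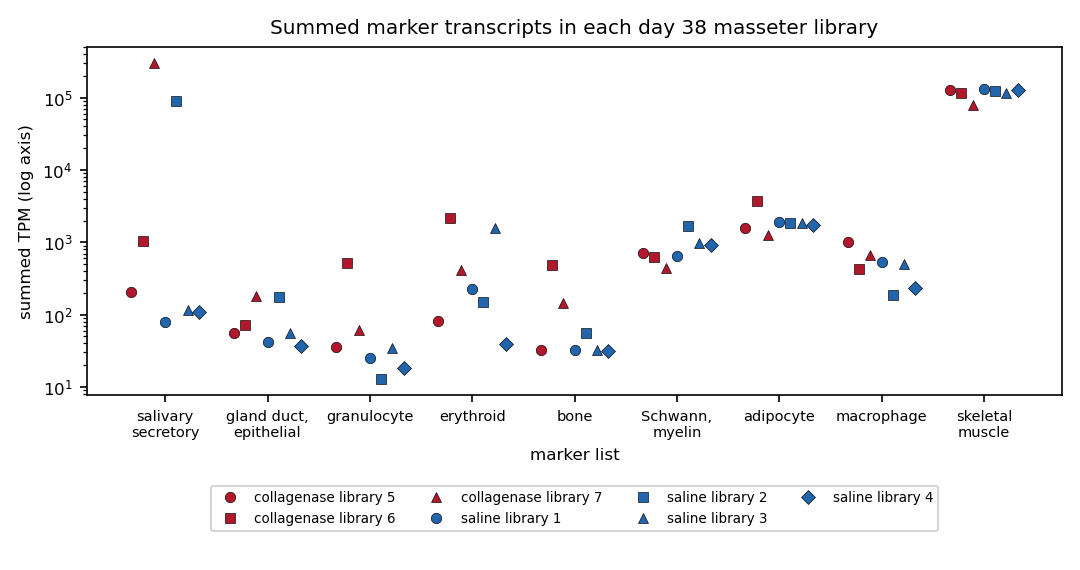
Summed TPM of marker lists (log axis) in each of the 7 libraries at day 38, collagenase libraries left of saline libraries. The salivary sum reached 303300 TPM in collagenase library 7 and 89570 TPM in saline library 2, and the bone sum reached 485 TPM in collagenase library 6.

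After collagenase, the genes called higher included the myoblast fusion genes Gm7325 and Tmem8c, the embryonic contractile genes Myh3 and Myl4, the slow troponins, the fibroblast genes Lrrc15 and Postn, and the macrophage genes Trem2 and Lgals3. The genes called lower differed by smaller amounts, and 66 of 78 differed less than 2-fold. Of 14652 genes tested, 49 (0.334%) were called higher and 78 (0.532%) lower at an adjusted p under 0.05 (edgeR quasi-likelihood test, Benjamini-Hochberg), 0.867% in either direction. The libraries of the groups did not overlap in any of the 127 called genes; over all genes tested, the collagenase libraries lay wholly above the saline libraries in 8.67% and wholly below in 9.28%, 17.9% in all. The higher genes differed by a median of 1.96 on the log2 scale and 30 of the 49 differed at least 2-fold, whereas the lower genes had a median size of 0.57. At an unadjusted p under 0.05, edgeR had 7.6% of all genes tested higher and 10.2% lower (17.8% in all). DESeq2 called 2% of its 14324 genes higher and 3.01% lower (5.01% in all), and limma voom 0.266% higher and 0.539% lower (0.805% in all). Counts within a gene list below stand against these shares. Of the 49 higher genes, 37 were highest in library 5, 6 in library 6 and 6 in library 7. With 3 against 4 libraries, an exact permutation test of a single gene cannot go below a two-sided p of 0.0571, so calls rest on the fit across all genes. In bulk tissue, fewer cells of a type and less RNA per cell cannot be told apart.

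The genes of myoblast fusion were among the clearest differences. Gm7325, now named Mymx, encodes myomixer, a small protein that completes the fusion of myoblast membranes (chromosome 17, 45600961 to 45602196, GRCm38). It was at 5.60, 4.36 and 2.06 counts per M counts (CPM) after collagenase and had no count in any of the 4 saline libraries. With 3 counts per saline library as the floor, it was at least 30.5-fold higher after collagenase (adjusted p = 9.32e-04). Tmem8c, now named Mymk, encodes myomaker, which starts membrane fusion (chromosome 2, 27061636 to 27072161). It was at 21.9, 3.99 and 2.52 CPM after collagenase, against 0.58, 0.20, 0.14 and 0.042 CPM after saline (log2 5.30 ± 0.81 SE, adjusted p = 0.0135). For both genes every collagenase library lay above every saline library, and library 5 was the highest. Without library 5, Tmem8c kept a log2 difference of 3.76 but not the call (adjusted p = 0.0637), and leaving out saline library 3 (5.10) or 4 (4.95) also ended the call (adjusted p = 0.0585 and 0.0607). Gm7325 was called in every fit that left out 1 library. With the day 38 groups alone neither Gm7325 (adjusted p = 0.0650) nor Tmem8c (adjusted p = 0.0777) was called, and with limma voom Tmem8c was not (adjusted p = 0.0790).

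Of 15 genes of myogenic regeneration, these 2 were called higher and 0 lower, with a median log2 difference of 0.15 against 0.0057 over all genes tested. The factors that maintain or commit satellite cells were not called. Pax7, which marks satellite cells, was at 3.77, 2.06 and 1.69 CPM after collagenase and 2.20 to 3.96 CPM after saline (log2 -0.34, adjusted p = 0.584). Myod1, which commits cells to muscle, was at 97.2, 96.1 and 87.6 CPM after collagenase and 48.2 to 78.1 CPM after saline (adjusted p = 0.481). Myog, the factor that drives differentiation, was at 44.3, 18.6 and 12.6 CPM after collagenase, against 7.57 to 9.85 CPM after saline (log2 1.49, adjusted p = 0.0764). Myog and Myod1 thus did not overlap between the groups but missed the call, and Pax7 overlapped; these 3 were picked with their values in view.

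The fetal receptor of the nerve-muscle synapse was also higher. Chrng, the gamma subunit that embryonic muscle uses in its acetylcholine receptor (chromosome 1, 87205811 to 87211835), was at 18.1, 2.30 and 1.65 CPM after collagenase, against 0.049, 0.25, 0.070 and 0.042 CPM after saline. All 3 collagenase libraries lay above the saline libraries, with library 5 far above libraries 6 and 7. Without library 5 the log2 difference of Chrng was 4.24 and still called. Without saline library 3 (5.98) or 4 (5.88) it was not (adjusted p = 0.0511 and 0.0607). Chrng was also not called with the day 38 groups alone (adjusted p = 0.0777) or with limma voom (adjusted p = 0.0978). The adult epsilon subunit Chrne was at 11.9, 9.58 and 11.1 CPM after collagenase, against 12.0 to 18.8 CPM after saline (log2 -0.44, adjusted p = 0.158). The other 14 of 15 synapse genes were not called, among them Chrna1 (log2 0.56), Chrnd (0.38) and Musk (-0.76), the kinase that gathers receptors at the synapse.

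Myogenic factors bind E-boxes, short DNA motifs spelled CANNTG. Promoters of 3 called muscle genes, picked because they hold the motif, are shown from RefSeq (GRCm38.p6) as the 250 bases before the listed start on the plus strand, with each CANNTG in capitals. A CANNTG read on the opposite strand is again a CANNTG, so 1 search covers both strands, and CAGCTG is 1 of its forms. Chrng holds CAGCTG at 155 and 132 bases before its start (chr1:87205561-87205810). Tnni1, slow troponin I, has 2 listed starts, and the stretch before the one shown holds 4 motifs (chr1:135799171-135799420). Myh3, embryonic myosin heavy chain, holds 1 (chr11:67078050-67078299). The same stretch of Myl4, called like Myh3, holds 0 and is not printed.
Chrng: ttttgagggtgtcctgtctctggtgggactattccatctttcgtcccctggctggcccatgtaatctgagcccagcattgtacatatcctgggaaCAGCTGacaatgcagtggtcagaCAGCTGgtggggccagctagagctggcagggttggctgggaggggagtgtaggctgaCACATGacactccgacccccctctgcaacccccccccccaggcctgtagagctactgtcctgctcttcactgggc
Tnni1: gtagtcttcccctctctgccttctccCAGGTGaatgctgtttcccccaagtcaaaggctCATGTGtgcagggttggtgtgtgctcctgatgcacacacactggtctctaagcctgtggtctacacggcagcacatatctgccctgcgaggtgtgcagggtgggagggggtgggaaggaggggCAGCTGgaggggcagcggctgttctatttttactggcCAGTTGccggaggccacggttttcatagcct
Myh3: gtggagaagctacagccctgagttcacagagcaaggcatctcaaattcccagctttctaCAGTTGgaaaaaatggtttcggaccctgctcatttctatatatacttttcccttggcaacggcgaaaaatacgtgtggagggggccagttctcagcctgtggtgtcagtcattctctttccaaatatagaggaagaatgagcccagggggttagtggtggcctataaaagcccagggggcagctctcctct
Of 11 called genes in the muscle lists, 8 had a listed promoter; 7 of these (87.5%) held a CANNTG and 3 (37.5%) held CAGCTG. The same shares were 60% and 20% of the 40 higher genes with a promoter, 55.9% and 15.3% of the 59 lower genes with one, and 66% and 12.8% of all 27025 genes with one. A match of letters is a description and not a binding site.

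The contractile genes in these lists that rose were embryonic and slow isoforms. The summed level of the 6 developmental genes did not move as one: it was 1036, 281.5 and 215 TPM after collagenase, against 667.8, 557.6, 509.6 and 539.1 TPM after saline. Library 5 thus lay above saline and libraries 6 and 7 below. Of 6 developmental sarcomere genes 3 rose and 0 fell (median log2 2.76), and of 10 slow-fibre genes 3 rose and 0 fell (median 0.68). At an unadjusted p under 0.05, edgeR had 4 developmental genes higher and 1 lower, and 7 slow-fibre genes higher and 0 lower. In each of these lists DESeq2 called 4 higher and 0 lower, and limma voom called 0 in either direction. Of 15 fast-fibre genes 0 were called in either direction by edgeR, DESeq2 or limma voom, with 1 of them higher and 0 lower at an unadjusted p under 0.05 (7.6% and 10.2% of all genes) and a median log2 of -0.08. Myh3 was at 137, 8.39 and 5.20 CPM after collagenase, against 0.34, 1.40, 0.88 and 1.00 CPM after saline. Its collagenase libraries lay above the saline libraries, with library 5 far above the other two. Without library 5 the log2 difference of Myh3 was 2.90, against 5.79 with it, and the call held (adjusted p = 0.0293). Without saline library 1, 3 or 4 the difference was 5.53 to 5.84 and not called (adjusted p = 0.0639 to 0.0702). Myl4, the embryonic light chain that pairs with such myosins, was at 120.2, 19.4 and 10.0 CPM after collagenase, against 1.65, 3.16, 2.35 and 1.62 CPM after saline. Myl4 had the same order of libraries as Myh3, and without library 5 its log2 difference was 2.75, against 4.51 with it, both called. Myl4 was not called with the day 38 groups alone (adjusted p = 0.0813) or with limma voom (adjusted p = 0.0831). Tnnt2, the cardiac troponin T also made by developing skeletal muscle, was at 33.0, 3.25 and 2.19 CPM after collagenase and 0.73, 1.05, 0.98 and 0.66 CPM after saline (log2 3.89 ± 0.74, adjusted p = 0.0298). The groups did not overlap for Tnnt2, but without library 5 the difference was 1.66 and not called (adjusted p = 0.127), nor was it without saline library 1, 3 or 4 (3.79 to 3.97, adjusted p = 0.0829 to 0.119). With the day 38 groups alone neither Myh3 nor Tnnt2 was called (adjusted p = 0.0911 and 0.1012). Neither was called with limma voom (adjusted p = 0.2105 and 0.1795).

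The 3 slow troponins, which bind calcium or hold the thin filament in slow fibres, rose together. Tnni1 was at 45.9, 6.17 and 3.8 CPM after collagenase, against 0.63, 1.05, 1.33 and 1.00 CPM after saline (log2 4.2 ± 0.67, adjusted p = 0.0181). Tnnc1 was at 20.0, 3.74 and 2.97 CPM after collagenase and 1.45 to 1.54 CPM after saline (log2 2.57 ± 0.55, adjusted p = 0.0444). Tnnt1 was at 51.5, 15.7 and 10.5 CPM after collagenase and 4.32 to 6.24 CPM after saline (log2 2.33 ± 0.45, adjusted p = 0.0302). In each, all 3 collagenase libraries lay above saline, and library 5 was far above libraries 6 and 7. Without library 5, Tnni1 was still called (log2 2.30, adjusted p = 0.0255), and Tnnc1 (1.16, adjusted p = 0.195) and Tnnt1 (1.35, adjusted p = 0.130) were not. Without saline library 1, 3 or 4 none of the 3 was called (adjusted p = 0.0561 to 0.138), and without library 6 Tnnc1 (2.94, adjusted p = 0.0551) and Tnnt1 (2.59, adjusted p = 0.0533) were not. None of the 3 was called with the day 38 groups alone (adjusted p = 0.0850 to 0.106) or with limma voom (adjusted p = 0.0889 to 0.147).

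Other members of the same lists were not called. Myh7, the slow myosin heavy chain, was at 3.98, 1.89 and 2.56 CPM after collagenase and 1.99 to 3.03 CPM after saline (log2 0.19, adjusted p = 0.826). Myh8, the perinatal myosin heavy chain, was at 1124, 430.5 and 392 CPM after collagenase, against 1111 to 1353 CPM after saline (log2 -0.90, adjusted p = 0.193). Myh8 thus ran the other way to Myh3 in libraries 6 and 7, while library 5 lay within the saline range. Of the fast genes, Myh2 of type 2A fibres was at 595, 340.4 and 310.4 CPM after collagenase and 109, 261, 263 and 230.2 CPM after saline (log2 0.94, adjusted p = 0.191).

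Sln encodes sarcolipin, which slows the calcium pump of the sarcoplasmic reticulum, and was the 1 called gene of 18 tested for calcium handling (chromosome 9, 53850251 to 53853849). It was at 31.8, 27.5 and 13.6 CPM after collagenase, against 0.39, 0.30, 1.19 and 0.58 CPM after saline, so the 3 collagenase libraries were close to each other, unlike those of Myh3 (log2 5.25, adjusted p = 2.14e-04). Sln was called under each of the 16 alternatives tried. The pump itself, Atp2a1, was at 33430, 31260 and 28270 CPM after collagenase and 26070 to 34310 CPM after saline, which overlapped. Within this list 6 members lay wholly below saline without being called, among them the triad genes Asph (log2 -0.44, adjusted p = 0.153) and Cacnb1 (-0.36, adjusted p = 0.203). Ankrd1, a titin-bound protein that rises in stretched or injured muscle, was at 12.8, 1.93 and 2.56 CPM after collagenase, against 0.39 to 0.63 CPM after saline (log2 3.39 ± 0.72, adjusted p = 0.0444), and was the 1 called member of 18 stress and repair genes. It was no longer called without library 5 (log2 2.02), 6 (3.8) or 7 (3.73), nor without saline library 1, 3 or 4 (3.24 to 3.46, adjusted p = 0.106 to 0.138). None of 22 atrophy and denervation genes was called by edgeR; 4 were higher and 1 lower at an unadjusted p under 0.05, and DESeq2 called 1 higher and 0 lower.

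**Figure D2:**
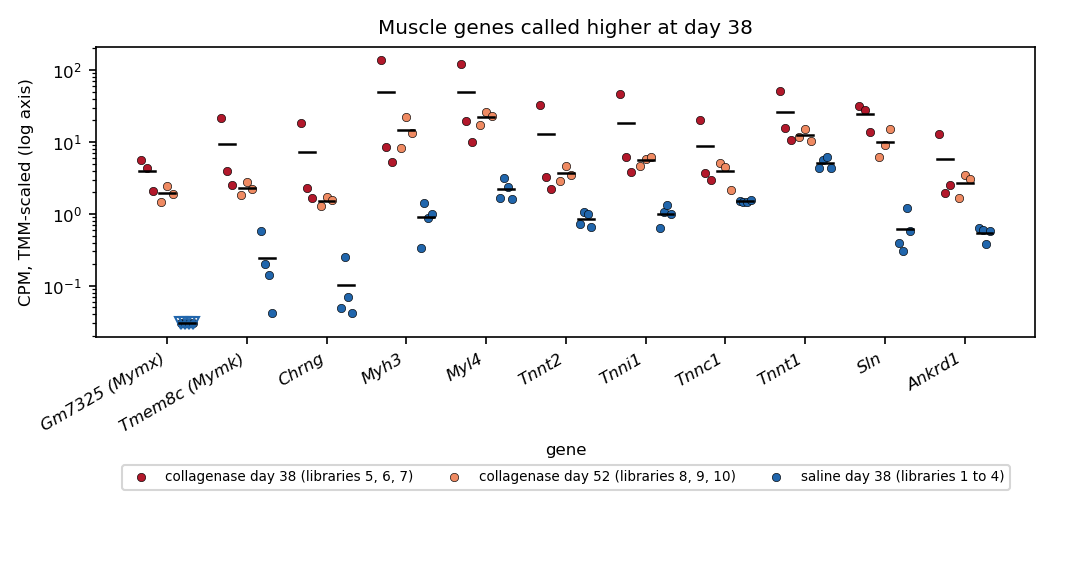
Normalised levels (CPM, log axis) of the 11 called muscle-list genes in each library, for collagenase at day 38, collagenase at day 52 and saline at day 38; bars are means and triangles mark libraries with no count. Each collagenase library at day 38 lies above each saline library, with library 5 the highest in all 11.

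Some matricellular genes rose, while the collagens and the genes of fibroblast identity were not called. Of 20 matricellular and elastic fibre genes 3 rose and 0 fell (median log2 0.86), and DESeq2 called 6 higher and limma voom 0. Tnn, tenascin-N, a matrix protein of developing bone and tendon (chromosome 1, 160085029 to 160153692), was at 3.94, 31.2 and 14.2 CPM after collagenase and had 4 counts in all 4 saline libraries together. The ratio of summed counts was 384, with an exact 95% interval of 149 to 1410 that covers counting error only (adjusted p = 0.0421). Unlike the muscle genes, Tnn was highest in library 6, the library highest in bone markers. The Tnn call was lost without collagenase library 5 (log2 8.87, adjusted p = 0.0774), 6 (7.54, adjusted p = 0.103) or 7 (8.5, adjusted p = 0.0939). Lrrc15, a membrane protein of activated fibroblasts, was at 21.5, 10.4 and 4.83 CPM after collagenase, against 0.49, 0.40, 0.95 and 0.46 CPM after saline (log2 4.38 ± 0.83, adjusted p = 0.0298). Postn, periostin, which links collagen fibres in healing tissue, was at 418, 173 and 93.0 CPM after collagenase, against 27.1, 16.9, 18.1 and 17.3 CPM after saline (log2 3.52 ± 0.75, adjusted p = 0.0444). For Lrrc15 and Postn the order of the collagenase libraries was 5, 6, 7 and the groups did not overlap. Without library 5 the log2 differences were 3.70 (adjusted p = 0.127) and 2.74 (adjusted p = 0.151). Each of Tnn, Lrrc15 and Postn was called without saline library 2, and none was called without saline library 1, 3 or 4 (adjusted p = 0.0708 to 0.148). Of the 3, only Lrrc15 was called without collagenase library 7 (log2 4.76, adjusted p = 0.0386), and none was without collagenase library 6.

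Further genes of matrix assembly rose by smaller amounts. P4ha3, a subunit of the enzyme that hydroxylates collagen, was at 3.65, 2.14 and 0.78 CPM after collagenase and 0.10 to 0.25 CPM after saline (log2 3.50 ± 0.61, adjusted p = 0.0228), the 1 called member of 18 collagen processing enzymes. Cilp, a matrix glycoprotein that binds the growth factor TGF-beta, was at 139, 112 and 82.2 CPM after collagenase and 35, 15.6, 36.9 and 19.4 CPM after saline (log2 2.06 ± 0.34, adjusted p = 0.0188), the 1 called member of 18 tendon and proteoglycan genes. Tgfb1, the profibrotic growth factor itself, was at 28.2, 25.7 and 25.9 CPM after collagenase, against 16.4, 16.6, 15.8 and 15.2 CPM after saline (log2 0.73 ± 0.12, adjusted p = 0.0201). Tgfb1 differed by less than the others, but its libraries lay close together within each group. The 3 calls were lost without library 5 (adjusted p = 0.106, 0.0774 and 0.0912) and without library 6 (adjusted p = 0.0601, 0.0561 and 0.0582). All 3 were lost without saline library 4 (adjusted p = 0.0702 to 0.0722), P4ha3 and Tgfb1 without saline library 1 or 3 (adjusted p = 0.0639 to 0.0711), and Tgfb1 without library 7 (adjusted p = 0.0502).

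None of 18 fibrillar and associated collagens was called by edgeR; 4 were higher and 0 lower at an unadjusted p under 0.05 (median log2 0.48), and DESeq2 called 2 higher. Col16a1, a collagen that sits on fibril surfaces, was at 31.1, 42.3 and 23.6 CPM after collagenase and 9.32 to 14.9 CPM after saline (log2 1.5, adjusted p = 0.123). Col18a1, the source of endostatin, was at 92.5, 42.6 and 47.4 CPM after collagenase and 33.4 to 40.1 CPM after saline (log2 0.74, adjusted p = 0.107). Both lay above saline in all 3 libraries without passing the threshold. None of 12 basement membrane genes was called by edgeR, with 0 higher and 1 lower at an unadjusted p under 0.05 and 0 called by DESeq2. Laminin alpha 2, Lama2, was at 44.3, 34.9 and 50.8 CPM after collagenase and 53.1 to 67.3 CPM after saline (log2 -0.51, adjusted p = 0.145).

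Of 13 fibro-adipogenic progenitor and fibroblast genes tested, 0 were called by edgeR or limma voom; 2 were higher and 0 lower at an unadjusted p under 0.05 (median log2 0.24), and DESeq2 called 1 higher. Cthrc1, a secreted protein of activated fibroblasts, was at 14.1, 3.58 and 2.77 CPM after collagenase and 0.29 to 1.12 CPM after saline (log2 3.45, adjusted p = 0.0536). Lum, the collagen-binding proteoglycan lumican, was at 66.2, 84.8 and 90.5 CPM after collagenase and 34.7 to 59.5 CPM after saline (log2 0.79, adjusted p = 0.207). The summed list of 14 genes was 1719, 1529 and 1790 TPM after collagenase, against 2155, 1456, 2620 and 1675 TPM after saline, and these overlap.

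**Figure D3:**
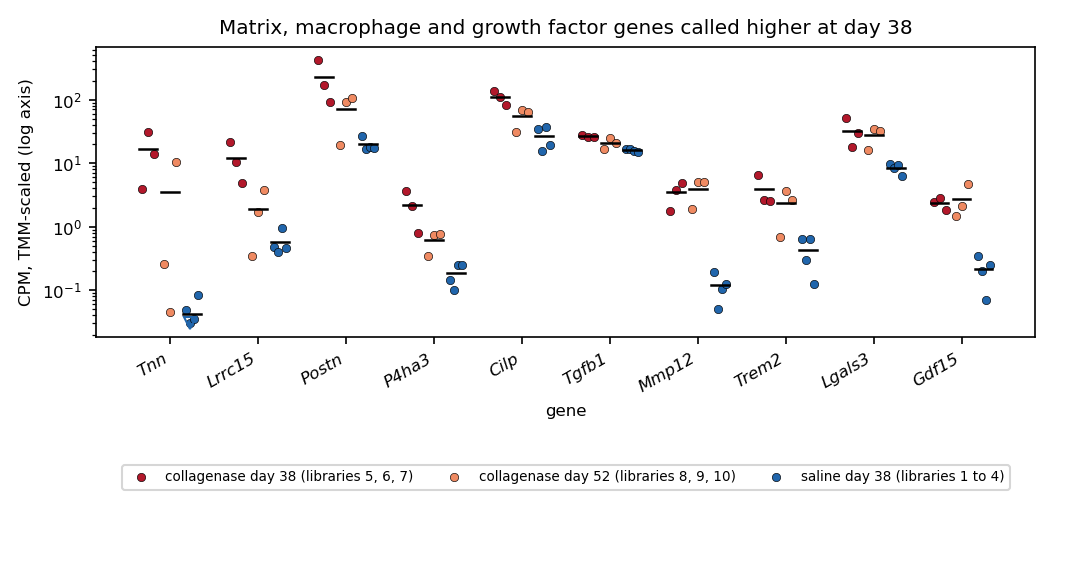
Normalised levels (CPM, log axis) of called matrix, macrophage and stress genes in each library, for collagenase at day 38, collagenase at day 52 and saline at day 38; bars are means, and Tnn in saline library 2 has no count and is drawn at the bottom of the axis. The day 38 collagenase libraries lie above all saline libraries, from a narrow band for Tgfb1 (25.7 to 28.2 CPM against 15.2 to 16.6 CPM) to a wide one for Postn (93.0 to 418 CPM against 16.9 to 27.1 CPM).

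Of the macrophage genes, Trem2 and Lgals3 passed the threshold. Of 25 tissue macrophage genes 2 rose and 0 fell, 16 were higher and 0 lower at an unadjusted p under 0.05 (7.6% and 10.2% of all genes), and the median log2 difference was 0.99. DESeq2 called 7 of them higher, against 2% of all genes, and limma voom 3. Trem2, a lipid receptor of macrophages that clear debris, was at 6.55, 2.59 and 2.52 CPM after collagenase, against 0.63, 0.30, 0.63 and 0.12 CPM after saline (log2 3.18 ± 0.59, adjusted p = 0.0297). Lgals3, galectin-3, was at 50.6, 17.7 and 29.7 CPM after collagenase and 6.19 to 9.81 CPM after saline (log2 1.96 ± 0.37, adjusted p = 0.0298). The groups did not overlap for either gene. The summed list was 1017, 425 and 662 TPM in libraries 5, 6 and 7, against 540, 188, 497 and 233 TPM after saline, and these overlap. Library 6, highest in granulocyte and bone markers, had the lowest macrophage sum of the collagenase group. Without saline library 2 and collagenase library 7, the 2 with the highest salivary sums, neither gene was called (Trem2 log2 3.28, adjusted p = 0.0528; Lgals3 2.00, adjusted p = 0.0639). Both calls were also lost without collagenase library 5 (log2 2.58 and 1.49) or 7 (3.41 and 2.02) and without saline library 1, 3 or 4 (adjusted p = 0.0651 to 0.114), and that of Trem2 without library 6 (3.40, adjusted p = 0.0561). Of the resident macrophage genes, Lyve1 (log2 -0.65, adjusted p = 0.426) and Cd163 (-0.07, adjusted p = 0.953) were not higher.

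Mmp12, the elastase of macrophages (chromosome 9, 7344397 to 7360461), was the 1 called gene of 27 matrix proteases and inhibitors tested. It was at 1.78, 3.82 and 4.92 CPM after collagenase, against 0.19, 0.050, 0.11 and 0.12 CPM after saline, and library 7 rather than 5 was the highest (log2 4.82, adjusted p = 9.32e-04). Its call held under each of the 16 alternatives. Of the 27 genes, edgeR had 10 higher and 0 lower at an unadjusted p under 0.05 (7.6% and 10.2% of all genes). DESeq2 called 4 of the list higher and limma voom 1, and the median log2 difference was 0.48. Mmp14, a membrane collagenase, was at 78.5, 38.8 and 52.2 CPM after collagenase and 18.0 to 28.5 CPM after saline (log2 1.24, adjusted p = 0.0764). Mmp13, a collagenase abundant in bone, was at 0.87, 32.9 and 7.85 CPM after collagenase and 0.25 to 0.75 CPM after saline (log2 4.86, adjusted p = 0.104) and is itself 1 of the 13 bone markers. Timp1, an inhibitor of such proteases, was at 6.47, 8.27 and 4.58 CPM after collagenase and 0.46 to 2.18 CPM after saline (log2 2.22, adjusted p = 0.0789). Gdf15, a hormone released by stressed cells and the 1 called member of 15 integrated stress response genes tested, was at 2.45, 2.84 and 1.86 CPM after collagenase, against 0.34, 0.20, 0.070 and 0.25 CPM after saline. Gdf15 was similar in the 3 collagenase libraries (log2 3.46, adjusted p = 0.00925) and was called under each of the 16 alternatives.

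None of 20 cell cycle genes was called by edgeR; 11 were higher and 0 lower at an unadjusted p under 0.05 (7.6% and 10.2% of all genes), with a median log2 difference of 1.34; DESeq2 called 2 higher and limma voom 0. Mki67, a protein of dividing cells, was at 9.49, 13.2 and 6.03 CPM after collagenase, against 3.25, 1.45, 1.02 and 1.45 CPM after saline (log2 2.42, adjusted p = 0.0981). Mki67 was highest in library 6, in which granulocyte and erythroid marrow markers were also highest. By TPM, Ccna2 (1.81, 1.99 and 0.63) and Rrm2 were highest there too. Ccne2 was highest there among the collagenase libraries (2.89 TPM), but saline library 4 was higher (3.43 TPM). Every other list member, such as Top2a (2.11, 1.51 and 0.68 TPM), was highest in library 5. Library 5 had the lowest granulocyte and erythroid sums of the collagenase group (36.0 and 81.1 TPM). Within the list 12 genes lay wholly above saline and 0 wholly below. The part of marrow transcripts in these genes was not tested. Replication genes such as Mcm2 (log2 0.08, adjusted p = 0.837) and Mcm3 (0.15, adjusted p = 0.692) overlapped between the groups.

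Because the series concerns pain, its mediators were examined as well. None of 31 pain mediators and receptors tested was called by edgeR, with 4 higher and 0 lower at an unadjusted p under 0.05 and 2 called higher by DESeq2. Gdnf, a growth factor for sensory and motor neurons, was at 4.31, 2.55 and 1.57 CPM after collagenase and 0.30 to 1.12 CPM after saline (log2 1.87, adjusted p = 0.0764). Its groups did not overlap. Calca, which encodes the peptide CGRP, was at 0 to 0.12 CPM after collagenase and 0 to 0.050 CPM after saline, and a difference was not detectable at this depth. Bdnf, a growth factor of neurons, was at 0.83 to 0.95 CPM after collagenase and 0.42 to 3.16 CPM after saline (adjusted p = 0.345).

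None of 22 cytokines and chemokines tested was called by edgeR; 3 were higher and 1 lower at an unadjusted p under 0.05, DESeq2 called 2 higher and limma voom 1. The monocyte attractant Ccl2 was at 2.20, 0.90 and 1.28 CPM after collagenase and 0.40 to 2.49 CPM after saline (log2 0.15, adjusted p = 0.939). Il1b (log2 1.10, adjusted p = 0.448), Tnf (-0.56, adjusted p = 0.851) and the prostaglandin enzyme Ptgs2 (-0.14, adjusted p = 0.887) were below 1 CPM in all 7 libraries, and Il6 did not pass the filter on low counts. Il1rn, which blocks interleukin-1, was at 0.37, 1.07 and 0.29 CPM after collagenase and 0.042 to 0.10 CPM after saline (log2 3.05, adjusted p = 0.0554), without overlap. Of 20 pain and mechanosensitive channels tested, 0 were called by edgeR, with 1 higher and 4 lower at an unadjusted p under 0.05 and 2 called lower by DESeq2. The mechanosensitive channel kinase Trpm7 was at 42.6, 45.8 and 46.0 CPM after collagenase and 63.3, 46.0, 61.1 and 79.8 CPM after saline (log2 -0.48, adjusted p = 0.0926).

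The 12 genes that fell by at least 2-fold belong to none of the 47 gene lists examined. Stk36, a kinase needed for motile cilia in mice (chromosome 1), was at 0.75, 0.62 and 0.58 CPM after collagenase, against 2.18, 2.36, 4.24 and 6.48 CPM after saline (log2 -2.55 ± 0.36, adjusted p = 0.00932). Its saline libraries differed by more among themselves than its collagenase libraries, and it was called without any single library but not with the day 38 groups alone (adjusted p = 0.0777). Otog, otogelin, known from membranes of the inner ear, was at 5.60, 5.96 and 3.76 CPM after collagenase and 17.7, 15.3, 12.7 and 26.7 CPM after saline (log2 -1.82 ± 0.38, adjusted p = 0.0412). Cd28, the costimulatory receptor of T cells, was at 3.32, 4.11 and 3.55 CPM after collagenase and 9.57, 7.11, 10.2 and 8.14 CPM after saline (log2 -1.26 ± 0.22, adjusted p = 0.0227). The groups did not overlap for Stk36, Otog or Cd28. The list of 15 T and NK cell genes ran the other way to Cd28, at 3.94 to 4.43 TPM summed after collagenase and 1.18 to 2.11 TPM after saline. Of its 5 genes tested 0 were called, with 1 higher and 0 lower in edgeR at an unadjusted p under 0.05.

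Amot, angiomotin, a scaffold of cell junctions and the Hippo pathway (chromosome X), was the most abundant gene of this group at 42.9, 47.1 and 53.8 CPM after collagenase, against 95.8, 85.6, 95.8 and 118 CPM after saline (log2 -1.04 ± 0.18, adjusted p = 0.0234). Its values spread little within either group. The other named falls were Chrna9, an acetylcholine receptor subunit known from hair cells of the ear (log2 -2.46), Themis3 (-2.41), the tau kinase Ttbk1 (-1.56), the GABA receptor subunit Gabrr2 (-1.47), the lens crystallin Crybb1 (-1.18), the mitochondrial carrier Sfxn4 (-1.02), the Cdc42 activator Fgd4 (-1.01) and the polarity scaffold Lin7a (-1.01). Their adjusted p ran from 0.0227 for Fgd4 to 0.0496 for Themis3. Rgs5, a pericyte marker that restrains G protein signals, fell to 140.3, 182 and 190.1 CPM after collagenase, against 309.5, 238, 318 and 342 CPM after saline (log2 -0.82 ± 0.16, adjusted p = 0.0328), the 1 call among 10 pericyte and smooth muscle genes. Of those 10, 3 were higher and 1 lower in edgeR at an unadjusted p under 0.05 (7.6% and 10.2% of all genes). DESeq2 called 2 of them higher and 1 lower, and the median log2 difference of the list was 0.19. Among the 12 falls of at least 2-fold and Rgs5, Stk36 alone kept its call in every fit that left out 1 library. Each of the others was lost without saline library 1 or 4 and without collagenase library 5, 6 or 7, and without saline library 3 except Gabrr2 (adjusted p = 0.0511 to 0.173).

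**Figure D4:**
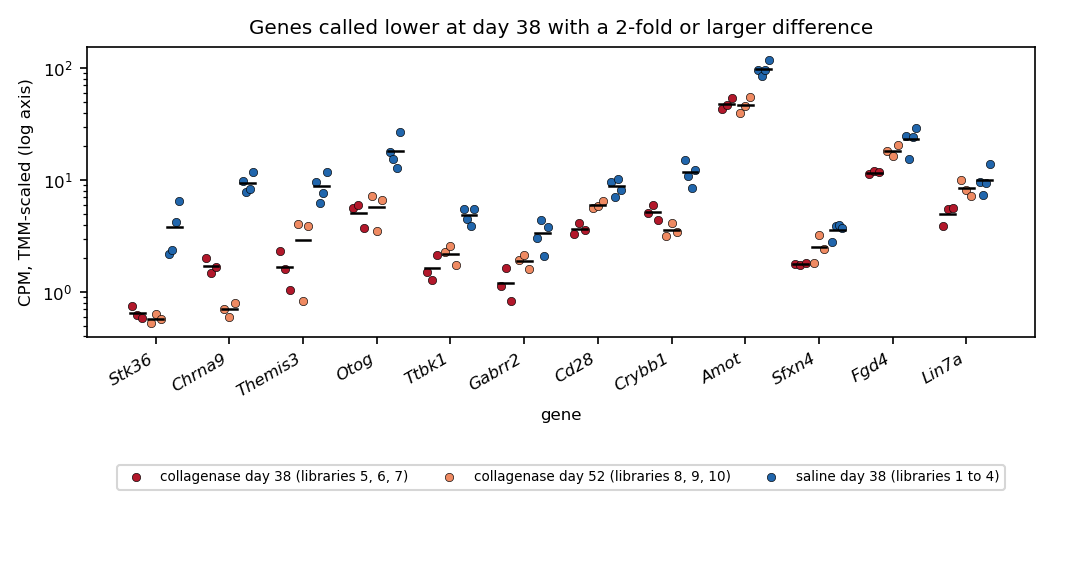
Normalised levels (CPM, log axis) of the 12 genes called lower with at least a 2-fold difference, for collagenase at day 38, collagenase at day 52 and saline at day 38; bars are means. The day 38 collagenase libraries lie below all saline libraries, and Amot is the most abundant of the 12, at 42.9 to 53.8 CPM after collagenase against 85.6 to 118 CPM after saline.

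Lists of metabolism and of systemic signals held no calls. Of 20 oxidative phosphorylation genes 0 were called by edgeR or DESeq2, with 0 higher and 1 lower at an unadjusted p under 0.05 (median log2 -0.05). Of 16 fatty acid oxidation genes 0 were called by edgeR and 1 was called lower by DESeq2, with 0 higher and 3 lower at an unadjusted p under 0.05. Hadha, an enzyme of fatty acid breakdown in mitochondria, was at 353, 338 and 312 CPM after collagenase and 386 to 395 CPM after saline (log2 -0.22, adjusted p = 0.161), a small difference without overlap. Of 20 glycolysis and glycogen genes 0 were called by edgeR and 1 was called lower by DESeq2, with 1 higher and 3 lower at an unadjusted p under 0.05. Of 17 glucocorticoid response genes 0 were called by edgeR or DESeq2, with 1 higher and 3 lower at an unadjusted p under 0.05. Fkbp5, a chaperone induced by glucocorticoids, was at 65.1, 65.1 and 74.2 CPM after collagenase and 97.9 to 139 CPM after saline (log2 -0.82, adjusted p = 0.188).

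Transcript length separated the higher from the lower calls. The median listed length was 1511 bases for the 49 higher genes (quartiles 1084 and 3186), 5205 bases for the 78 lower genes (3388 and 7161) and 2784 bases for all genes tested (1775 and 4189). Across all 14652 genes, length and log2 difference had a Spearman rho of -0.235; genes of the same libraries are not independent replicates. The very long muscle transcript Neb, nebulin, was at 3725, 3090 and 2731 CPM after collagenase, against 4410 to 7032 CPM after saline (log2 -0.75, adjusted p = 0.0955), and Ttn, titin, at 3494, 2790 and 2136 CPM after collagenase, against 3182 to 5065 CPM after saline (log2 -0.43, adjusted p = 0.366). Neb did not overlap between the groups and Ttn did, and neither was called. The part of transcript length in the lower calls was not tested.

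Day 52 was compared with day 38 among the collagenase masseters. Between day 52 and day 38 after collagenase, 14 genes (0.0956%) were called, 11 higher (0.0751%) and 3 lower (0.0205%) at day 52; they include 0 of the 49 higher genes and 2 of the 78 lower genes. With 3 libraries a group, a miss of this test does not show equal levels. The saline libraries are of day 38, so day and treatment cannot be told apart at day 52. The genes were chosen at day 38 against these same saline libraries, so the day 52 values below are given side by side as a description.

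Values at day 52 follow for a few of these genes. Gm7325 was at 1.48, 2.47 and 1.90 CPM at day 52, against 2.06 to 5.60 CPM at day 38. Sln was at 6.27, 9.11 and 15 CPM at day 52, against 13.6 to 31.8 CPM at day 38 (log2 -1.26 ± 0.43, adjusted p = 0.142). Mmp12 was at 1.92, 4.99 and 5.04 CPM at day 52, against 1.78 to 4.92 CPM at day 38 (log2 0.19, adjusted p = 0.864). In these 3 genes every day 52 library lay above every saline library. The matrix genes varied more at day 52: Postn was at 19.2, 93.2 and 105 CPM, against 93.0 to 418 CPM at day 38, and its lowest library lay within the saline range of 16.9 to 27.1 CPM. Tnn was at 0.26, 0.046 and 10.4 CPM at day 52, so 1 of 3 libraries carried it, and that library (10) also held granulocyte and bone genes such as Ngp (53.7 CPM) and Ibsp (23.5 CPM). Chrna9 was at 0.70, 0.59 and 0.80 CPM at day 52, against 1.48 to 1.99 CPM at day 38 (log2 -1.28, adjusted p = 0.243), and Stk36 at 0.52, 0.64 and 0.57 CPM, against 0.58 to 0.75 CPM. Fgd4 and Lin7a ran the other way, with 16.5 to 20.4 CPM and 7.17 to 9.93 CPM at day 52 against 11.3 to 11.9 CPM and 3.90 to 5.58 CPM at day 38 (adjusted p = 0.0935 and 0.0966).

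The number of calls hung on single libraries. Leaving out 1 library gave 11 to 31 calls in 6 of the 7 cases, and 660 calls without saline library 2; these 660 include all 127. Of the 27 genes named for the largest rises and falls, 5 were called in every fit without 1 library: Sln, Mmp12, Myl4, Gdf15 and Stk36, and outside those 27 the same held for Gm7325. Of these 6, Myl4, Stk36 and Gm7325 were not called with the day 38 groups alone. Without the libraries with the highest salivary sums (saline 2 and collagenase 7), 143 genes were called, of which 74 were among the 127. Collagenase libraries 5 and 6, which also held some gland transcripts, stayed in that fit. Of the 15 named rises and 12 named falls, 5 and 1 were called with the day 38 groups alone, 4 and 11 with limma voom, 5 and 9 with limma on log2(TPM + 0.5), and 12 and 6 with no filter on low counts. No called gene that is named here turned its direction in any of the 16 alternatives.

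**Figure D5:**
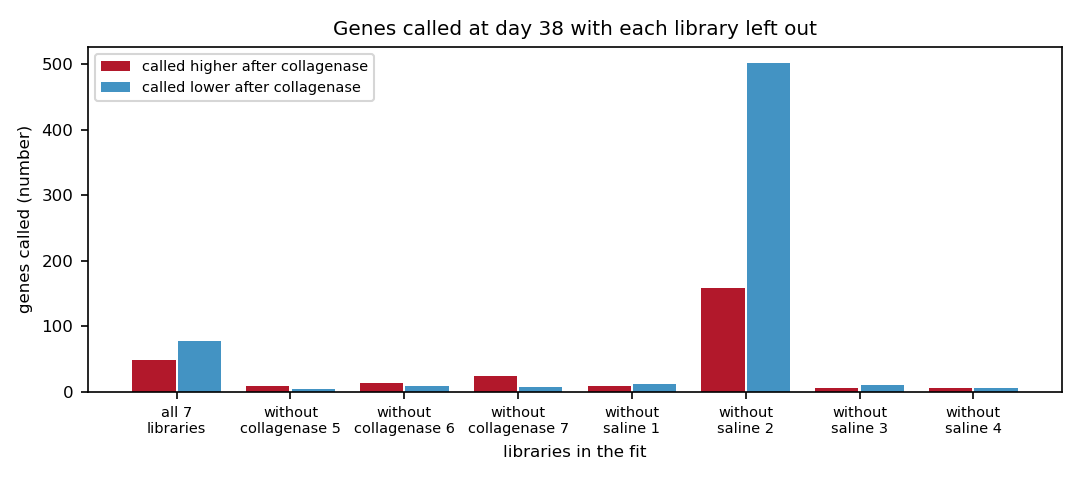
Number of genes called higher (red) and lower (blue) after collagenase at day 38, with all 7 libraries and with each library left out in turn. The bars reach 49 and 78 genes with all libraries, 159 and 501 genes without saline library 2, and no more than 24 and 11 genes in the other 6 fits.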

How the data were processed

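Messenger RNA was selected with oligo-dT beads, and strand-marked libraries were sequenced single-end or paired-end, per the labels' protocols. RSEM, Trim Galore and bcl2fastq with build mm10 are named by the submitters' processing notes; for the aligner, tool versions, annotation release and strand setting the sources used here give nothing. Per the file headers, the deposited expected counts are estimates of reads per gene from RSEM, not scaled between libraries. The deposited TPM (transcripts per M transcripts of a library) also come from RSEM, and FPKM as deposited was left out. The median gap between a gene's listed length and effective length was above 60 bases in all 7 libraries, which were therefore taken as paired-end.

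Expected counts were rounded. All 17 masseter libraries (5 groups) were fitted once with edgeR 4.0.16 in R 4.3.3: filterByExpr, TMM, quasi-likelihood test, Benjamini-Hochberg adjustment over 14652 genes, threshold 0.05. An adjusted p with no tool beside it is from this fit. CPM use TMM-scaled library sizes; SE is implied by the F statistic. Alternatives used DESeq2 1.42.0 and limma 3.58.1 (voom, or log2(TPM + 0.5)). The fit was also run on simulated counts, drawn from each gene's average level and fitted spread, and the outcome is not given here. Those counts hold no gland or marrow differences between libraries, so that run cannot vouch for the calls. Within groups, the chi-square of counts per gene between libraries was at least 24.3, so each library was counted once. Intervals and floors cover counting error only, and genes with near-identical copies are uncertain.

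Named were up to 15 rises and 15 falls that were called, at least 2-fold, averaging at least 1 CPM in either group and without overlap (15 and 12 found, predicted genes left out), called members of the lists or up to 2 members with the smallest p where none was called, and 8 genes of pain and inflammation. One further gene is not reported here. Other list members were picked with their values in view. Members and lists were chosen with earlier results of these data known. Promoters and gene positions are RefSeq's (GRCm38.p6, the build mm10).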

Additional observations from a re-analysis of the deposited data

Results flagged for a closer look

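In 14 of the 121 gene and marker values examined, 1 of the 4 saline libraries stood apart from the other 3 by more than Dixon's 95% limit; chance gives this in about 1 in 20 groups. Groups of 3 were not examined in this way. Saline library 2 accounted for most of the values tied to glands: salivary secretory markers summed to 89570 TPM there, against 78.6 to 117 TPM in the other saline libraries. The duct and epithelial sum was 173 TPM, against 36.6 to 55.8 TPM. In the same library, CPM were 83.0 for the saliva peroxidase Lpo (0 to 0.15 in the others), 32.8 for the secretory cell factor Bhlha15 (0 to 0.11) and 5.31 for the epithelial factor Elf3 (0.63 to 1.19). Library 2 also stood apart in the bone sum (56.0 TPM, against 31.8 to 32.8 TPM), in Kit (9.52 CPM, against 4.74 to 4.90 CPM) and in Chrng (0.25 CPM, against 0.042 to 0.070 CPM), and it was low in the clock gene Clock (39.6 CPM, against 64.5 to 67.9 CPM).

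In saline library 3 the erythroid sum was 1575 TPM, against 39.0 to 227 TPM, and the red cell anion exchanger Slc4a1 was at 0.28 CPM, against 0.042 to 0.050 CPM. Library 3 was also highest for Lrrc15 (0.95 CPM, against 0.40 to 0.49 CPM). Postn was apart in saline library 1 (27.1 CPM, against 16.9 to 18.1 CPM) and the endothelial receptor Flt1 in saline library 4 (193.7 CPM, against 158 to 163 CPM). For Chrng, Lrrc15 and Postn the apart saline library still lay below all 3 collagenase libraries.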

How the results depend on the processing

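No paired analysis was possible because the titles number the saline libraries 1 to 4 and the collagenase libraries 5 to 7 and share no number. With all libraries 127 genes were called at day 38 (49 higher, 78 lower). The total was 73 (34 lower) with no low-count filter, 14 (7 and 7) with the day 38 groups alone, 240 (106 and 134) with the 13 paired-end libraries, 717 (286 and 431) with DESeq2 and 22 (7 and 15) with limma on log2(TPM + 0.5), which moved the median of all genes to -0.17. All 127 were among the DESeq2 calls. Leaving out 1 library gave 11 to 660 calls (5 to 159 higher, 4 to 501 lower). The share of calls that were higher was 38.6%, against 53.4% with no filter, 50% with the day 38 groups alone, 69.2%, 63.6% and 77.4% without collagenase library 5, 6 and 7, and 24.1% without saline library 2. Between day 52 and day 38, 14 genes were called; the count was 4 with RLE size factors, 0 with no filter, with the 13 paired-end libraries or without saline 2 and collagenase 7 (the highest salivary sums), 121 with a minimum of 1 CPM, 833 with DESeq2, 1 with limma voom, 698 on TPM, and 0 to 415 without 1 library. The cause of these shifts was not tested. Of 34 named genes that were called, 3 (Sln, Mmp12 and Gdf15) were called under each of the 16 alternatives and 0 turned direction. Among uncalled genes, 5 turned direction (log2, with the range without 1 library): Kit (-0.003 without collagenase library 7; -0.003 to 0.72), Cidea (-1.07 without collagenase library 6; up to 3.62), Ccl2 (-0.14 without saline library 2, -0.013 without saline library 3, -0.27 without collagenase library 5, -0.065 without saline 2 and collagenase 7; up to 0.67), Tnf (0.22 without saline library 2; from -0.94) and Ptgs2 (0.14 without saline library 1; from -0.34). Leaving out saline 2 and collagenase 7 together was chosen after seeing the data. Depth limits genes below about 1 CPM, such as Calca.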

Other observations

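Transcripts of secretoglobin and odorant-binding genes, which glands and the nasal lining secrete, were abundant in collagenase library 6. Lower levels were present in collagenase library 5. The selection was made with the values in view. Scgb1b20 was at 9.41, 6704 and 0 TPM in collagenase libraries 5, 6 and 7, and at 0 to 2.23 TPM in the saline libraries. Obp1a was at 53.0, 8270 and 0.17 TPM in the collagenase libraries, and at 0 to 0.74 TPM in the saline libraries. Both were thus highest in library 6, which also held the bone and marrow transcripts, and in library 5 both lay above every saline library. Neither was high in library 7, which had the highest salivary sum.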
